A study of Mus musculus with 12 samples.

Results

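Mouse embryonic stem (ES) cells labelled as a double knockout of both SUV420H enzymes were described from 2 ES cell libraries labelled SUV420H1_H2 DKO set against 2 ES cell libraries labelled WT. They were chosen by their sample titles and are 4 of the 12 samples of the series. The other ES cell samples are 2 SUV420H2 KO libraries, used here to estimate the spread and as a further value beside named genes, and the rest are 1 library per genotype after 8 and 12 days of differentiation. Every ES cell group was kept undifferentiated on gelatin with 1.5 µM of a GSK3 inhibitor, spelled CHIR9901 in the labels, and was passaged until the feeder cells were gone. PolyA RNA was sequenced from all of them. The deleted exons, the parental strain and the number of clones behind each line are not given in the sources used here. Nor is it said whether replicate libraries of each genotype stem from independent cultures, and the p-values below measure only the spread between these libraries, which may be technical.

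Methyl groups on lysine 20 of histone H4 are added in steps. SETD8 places the first, and SUV420H1 and SUV420H2 convert that mark to the di- and trimethylated forms. The dimethyl mark is read by repair and replication proteins such as 53BP1 and ORC1, and the trimethyl mark is known for its place in pericentric and telomeric heterochromatin.

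In all, 23309954 and 25820444 reads fell in genes in the 2 libraries labelled DKO, against 23883895 and 24713148 reads in the WT libraries. All 8 ES cell markers of the marker list had reads in each of these libraries, and their summed level was 1683 and 1378 RPKM in DKO-labelled libraries, against 3070 and 3005 RPKM in WT. RPKM is reads per kilobase of transcript and per megaread mapped. The markers did not fall alike. Zfp42 had 90.7 and 85.1 RPKM in DKO-labelled libraries, against 753 and 707 RPKM in WT. Sox2 had 458 and 366 RPKM in DKO-labelled libraries, against 452 and 448 RPKM in WT. In bulk libraries, fewer cells of a type and less RNA per cell cannot be told apart, and neither was tested. Of 12046 genes tested with edgeR's quasi-likelihood test, 7688 differed at a Benjamini-Hochberg adjusted p under 0.05, which is 63.8%. In the libraries labelled DKO 3879 genes were higher (32.2%) and 3809 were lower (31.6%), and the median log2 fold change over all tested genes was -0.01. Changes of at least 2-fold were found for 3242 genes (26.9%), 1668 of them higher and 1574 lower. With so many genes called, each list below is given beside these shares. The lists hold 1267 genes, of which 998 reached 1 RPKM in at least 2 of the 6 ES cell libraries and were tested. A gene near absence in WT could pass that filter only through the other libraries, so counts in lists of silent genes describe the members that passed and not the whole list.

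The 2 targeted genes behaved differently. In reads per megaread in genes after TMM scaling (CPM), Suv420h2 had 23.1 and 14.8 CPM in DKO-labelled libraries, against 121 and 109 CPM in WT (log2 fold change -2.60, SE 0.19, edgeR adjusted p = 2.4e-07). Suv420h1 had 60.2 and 69.4 CPM in DKO-labelled libraries, against 43.8 and 48.6 CPM in WT (log2 fold change 0.49, SE 0.13, edgeR adjusted p = 0.0057). In neither gene did the groups overlap, and Suv420h1 was higher, not lower, under its knockout label. The transcript models of Suv420h1 moved in opposite directions. Its 3290-base model held 367 and 283 reads in DKO-labelled libraries, 694 and 612 reads in KO libraries and 720 and 678 reads in WT. The 3016-base and 3318-base models also held fewer reads in DKO-labelled libraries than in WT. Its 6131-base model held 1351 and 1716 reads in DKO-labelled libraries, 976 and 1003 reads in KO libraries and 1067 and 1220 reads in WT. Whole-transcript counts do not reveal a missing exon, and without WT replicate 1 the Suv420h1 call was lost (log2 fold change 0.41, edgeR adjusted p = 0.095). The wording "labelled DKO" is kept for that reason. The groups also differ in the Y chromosome: Ddx3y, Eif2s3y and Uty, ubiquitously expressed Y-linked genes, had no reads in DKO-labelled libraries, against 53.9 and 53.7, 33.7 and 33.1, and 17.2 and 18.6 CPM in WT. With a floor of 3 counts per library Ddx3y was at least 420-fold lower, Eif2s3y at least 260-fold and Uty at least 140-fold. The KO libraries had no reads of these genes either, so genotype and the loss of Y-linked reads cannot be told apart.

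Of 13 genes listed for writers, erasers and readers of H4K20 methylation, 12 were tested, 6 were higher and 5 lower in DKO-labelled libraries, with a median log2 fold change of 0.14. That median had no stable sign: it was -0.23 with no filter on low values and -0.21 with a filter of 5 RPKM, and 0.30, 0.06 and 0.09 without DKO replicate 1, DKO replicate 2 and WT replicate 1. Setd8, the monomethylase, had 114 and 144 CPM in DKO-labelled libraries, against 146 and 152 CPM in WT, and did not pass the test (edgeR adjusted p = 0.18), though it did without DKO replicate 2 (log2 fold change -0.36, edgeR adjusted p = 0.0081). Whsc1, which encodes the methyltransferase NSD2, had 64.8 and 80.4 CPM in DKO-labelled libraries, against 28.9 and 28.6 CPM in WT, the largest rise of the list (log2 fold change 1.34, SE 0.15). Of the Jumonji demethylase family 4 members rose and Hr fell. Phf2 had 31.8 and 32.0 CPM in DKO-labelled libraries, against 14.5 and 13.2 CPM in WT. Jhdm1d rose by a log2 fold change of 1.19, Rsbn1 by 0.71 and Phf8, whose product removes the monomethyl mark, by 0.62. Hr, a nuclear corepressor, fell (log2 fold change -0.92). Msh6 was also counted among the lower members (log2 fold change -0.65, edgeR adjusted p = 0.0008). Whether the products of Hr and Msh6 act at H4K20 was not tested. Among readers, Orc1, a subunit of the origin recognition complex, had 25.8 and 29.0 CPM in DKO-labelled libraries, against 41.6 and 43.4 CPM in WT (log2 fold change -0.63, edgeR adjusted p = 0.0012). Trp53bp1, which encodes 53BP1, had 102 and 106 CPM in DKO-labelled libraries, against 124 and 129 CPM in WT (log2 fold change -0.28, edgeR adjusted p = 0.042), a call that was lost without DKO replicate 1, WT replicate 1 or WT replicate 2, at edgeR adjusted p = 0.066, 0.16 and 0.26. L3mbtl1, a reader that compacts chromatin, was below the filter in all groups.

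**Figure D1:**
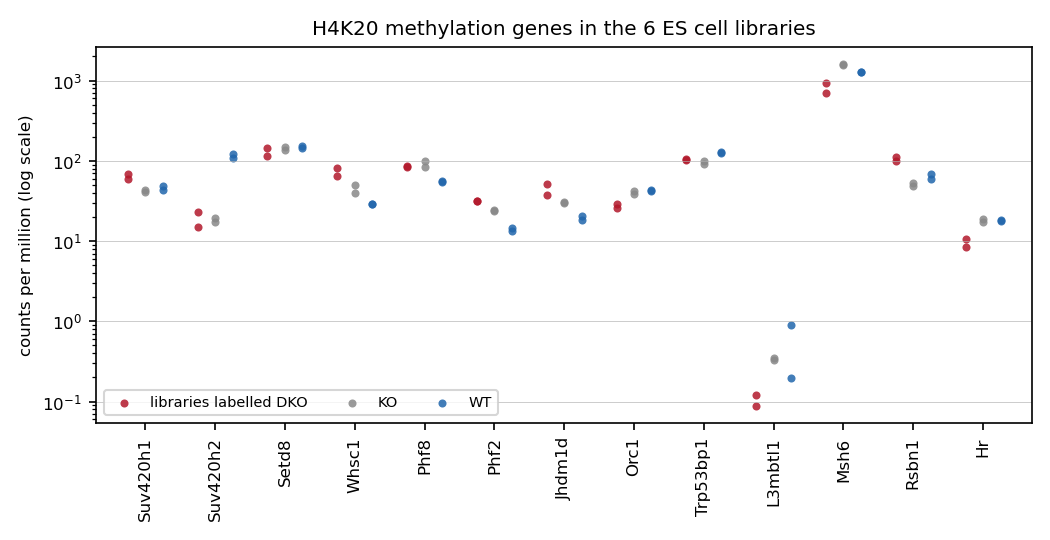
CPM on a log axis for the 13 genes listed for H4K20 methylation in each ES cell library, with 2 points per genotype in the order DKO-labelled, KO and WT. Suv420h2 is low in both mutant lines, Suv420h1 is highest in the DKO-labelled libraries, and Whsc1, Phf2 and Jhdm1d are higher there than in WT.

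The integrated stress response had the largest share of higher members among the lists with over 10 tested genes. It is the pathway in which phosphorylation of the initiation factor eIF2 favours translation of ATF4, a transcription factor for amino acid supply. Of 49 tested members, 38 were higher and 4 lower in DKO-labelled libraries, or 1 and 2 lower without WT replicate 1 and WT replicate 2, with a median log2 fold change of 1.06. Atf4 itself had 861 and 769 CPM in DKO-labelled libraries, against 507 and 481 CPM in WT (log2 fold change 0.72, SE 0.12, edgeR adjusted p = 0.00016). Ddit3, the stress factor CHOP, had 78.4 and 75.1 CPM in DKO-labelled libraries, against 26.4 and 24.9 CPM in WT. Nupr1, a stress-induced chromatin protein, had 178 and 158 CPM in DKO-labelled libraries, against 14.4 and 13.5 CPM in WT (log2 fold change 3.59, SE 0.13, edgeR adjusted p = 2.5e-09). Ddit4, an inhibitor of mTORC1, had 1557 and 1280 CPM in DKO-labelled libraries, against 105 and 119 CPM in WT (log2 fold change 3.66, SE 0.17, edgeR adjusted p = 7.9e-09).

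Enzymes and transporters of the same list moved in both directions. Aldh1l2, the mitochondrial formyltetrahydrofolate dehydrogenase, had 70.9 and 75.3 CPM in DKO-labelled libraries, against 3.45 and 3.27 CPM in WT, a 21.7-fold difference and the largest of the list. Cth, the cystathionine gamma-lyase of cysteine synthesis, was 6.11-fold higher and Asns, asparagine synthetase, 3.06-fold higher. Psat1, an enzyme of serine synthesis, overlapped between the groups with 358 and 378 CPM in DKO-labelled libraries and 375 and 334 CPM in WT. Slc7a3, a cationic amino acid transporter of ES cells, fell (log2 fold change -0.62, edgeR adjusted p = 0.00075). For Atf4, Ddit3, Nupr1, Ddit4, Aldh1l2, Cth and Asns the DKO-labelled libraries were also above the KO libraries in the same fit, with log2 differences of 0.79, 1.68, 2.52, 2.38, 3.21, 2.47 and 0.67.

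Binding letters of ATF4 paired with a C/EBP factor were looked for in the promoters of the list, from 250 bases before to 50 after the RefSeq start in GRCm38.p6. The words TGATGCAA, TGATGAAA and TGATGTAA were searched on both strands. They were in 17 of 49 promoters of the 42 members with an entry, 34.7%, against 984 of 32851 promoters in all, 3%. Among the higher members with a promoter, 11 of 31 held the letters, and among the lower members 2 of 3 did. The 3 members with the letters that rose most are shown 5′ to 3′ on the strand of the gene, with the matching letters of either strand in capitals. Atf3, a stress-induced factor of the ATF family, lies at chr1:191183284-191183583 on the minus strand, Nupr1 at chr7:126625421-126625720 on the minus strand and Vldlr, a lipoprotein receptor, at chr19:27216770-27217069 on the plus strand.
Atf3: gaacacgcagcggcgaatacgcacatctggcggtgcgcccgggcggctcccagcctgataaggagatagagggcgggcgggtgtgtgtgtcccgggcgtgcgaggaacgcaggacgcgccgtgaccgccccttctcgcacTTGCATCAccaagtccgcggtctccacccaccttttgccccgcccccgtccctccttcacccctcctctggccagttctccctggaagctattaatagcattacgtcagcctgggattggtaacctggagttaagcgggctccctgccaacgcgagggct
Nupr1: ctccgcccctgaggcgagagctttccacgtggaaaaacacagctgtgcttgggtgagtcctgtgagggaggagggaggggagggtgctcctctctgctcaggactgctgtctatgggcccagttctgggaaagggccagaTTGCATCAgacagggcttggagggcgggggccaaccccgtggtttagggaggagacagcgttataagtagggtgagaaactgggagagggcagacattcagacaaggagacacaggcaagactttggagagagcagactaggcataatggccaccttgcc
Vldlr: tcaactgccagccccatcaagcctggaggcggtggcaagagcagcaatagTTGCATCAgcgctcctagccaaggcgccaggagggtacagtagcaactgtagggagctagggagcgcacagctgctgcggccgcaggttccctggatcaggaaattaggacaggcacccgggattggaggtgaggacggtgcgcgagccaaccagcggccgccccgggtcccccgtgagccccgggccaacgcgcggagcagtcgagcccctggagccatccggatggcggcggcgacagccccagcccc
The letters begin 110 bases before the start in Atf3, 110 bases before it in Nupr1 and 200 bases before it in Vldlr. Vldlr had 40.2 and 46.8 CPM in DKO-labelled libraries, against 4.56 and 3.79 CPM in WT. Pycr1 and Aars, a proline-synthesis enzyme and an alanyl-tRNA synthetase, hold the letters too and did not pass the test, with log2 fold changes of 0.00 for both. A match describes the sequence and was not tested for binding.

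Genes listed for protein folding mostly went the other way, a split that depends on which list a gene was put in. Of 35 tested genes of the unfolded protein response and heat shock, 5 were higher and 22 lower in DKO-labelled libraries, or 3 higher without WT replicate 1, with a median log2 fold change of -0.59. Hspa5, the main chaperone of the endoplasmic reticulum (BiP), had 298 and 350 CPM in DKO-labelled libraries, against 713 and 757 CPM in WT (log2 fold change -1.18, SE 0.12, edgeR adjusted p = 3e-06). Pdia6, a disulfide isomerase, had 57.8 and 53.1 CPM in DKO-labelled libraries, against 205 and 205 CPM in WT. Xbp1, the transcription factor of the IRE1 arm, fell to 33.4 and 36.2 CPM in DKO-labelled libraries, against 96.6 and 103 CPM in WT. Xbp1 is on chromosome 11, whose genes as a whole were lower (below). The mitochondrial chaperonin Hspd1 had 189 and 220 CPM in DKO-labelled libraries, against 706 and 672 CPM in WT, and the cytosolic chaperone Hspa8 567 and 619 CPM in DKO-labelled libraries, against 1231 and 1262 CPM in WT. Among the members that rose, Atf6, the sensor of its own arm, was 1.95-fold higher and the inducible cytosolic chaperone Hsp90aa1 1.46-fold higher.

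Lipid synthesis had the largest share of lower members among the lists with over 10 tested genes. Of 34 tested genes of cholesterol and fatty acid synthesis, 29 were lower and 1 higher in DKO-labelled libraries, or 3 higher without DKO replicate 2, and the median log2 fold change was -0.95, against -0.01 over all genes. Dhcr7, the last reductase of cholesterol synthesis, had 19.7 and 15.4 CPM in DKO-labelled libraries, against 120 and 126 CPM in WT (log2 fold change -2.81, SE 0.14, edgeR adjusted p = 1.9e-08). Insig1, the sterol-regulated retention protein, was 0.438-fold and Sqle, the squalene epoxidase, 0.474-fold the WT level. Srebf2, the transcription factor of the pathway, fell less (log2 fold change -0.33, edgeR adjusted p = 0.017). In fatty acid synthesis Acly, which makes cytosolic acetyl-CoA, had 108 and 114 CPM in DKO-labelled libraries, against 513 and 510 CPM in WT, and Fasn, the fatty acid synthase, 580 and 505 CPM in DKO-labelled libraries, against 1730 and 1749 CPM in WT. Acly and Fasn are both on chromosome 11. Elovl6, a fatty acid elongase, was the member that rose (log2 fold change 0.84, edgeR adjusted p = 0.00014), and Cyp51 overlapped between the groups. Hmgcs1, listed at 0 in every ES cell library for its longest model, was not tested. Dhcr7, Acly and Fasn were also lower than in the KO libraries, by log2 differences of -2.11, -2.32 and -2.0.

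Of 33 tested genes of glycolysis and the hypoxia response, 21 were lower and 5 higher in DKO-labelled libraries, with a median log2 fold change of -0.59. Ldha, which makes lactate, had 193 and 152 CPM in DKO-labelled libraries, against 740 and 775 CPM in WT (log2 fold change -2.14, SE 0.13, edgeR adjusted p = 6.2e-08). The glucose transporter Slc2a1 had 277 and 230 CPM in DKO-labelled libraries, against 712 and 749 CPM in WT. Slc2a3, the other main glucose transporter of ES cells, moved the opposite way, with 4263 and 4348 CPM in DKO-labelled libraries, against 1481 and 1553 CPM in WT. Aldoc, a brain-type aldolase on chromosome 11, was 0.125-fold the WT level, while the neuronal enolase Eno2 was 7.57-fold higher. Hif1a, the oxygen-regulated transcription factor, was 2-fold higher and Vegfa, the angiogenic growth factor, 3.38-fold higher. Gapdh did not pass the test, with 193 and 191 CPM in DKO-labelled libraries, against 204 and 220 CPM in WT (edgeR adjusted p = 0.26). Slc2a3 was as high in the KO libraries, at 3762 and 3633 CPM, and did not differ from them by the test (edgeR adjusted p = 0.073).

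Of 73 tested oxidative phosphorylation subunits, 37 were lower and 2 higher in DKO-labelled libraries, with a median log2 fold change of -0.46, and the higher count was 4 without DKO replicate 2 and 1 with WT replicate 1 or WT replicate 2 left out. Cox6b1, a subunit of cytochrome c oxidase, had 20.8 and 16.5 CPM in DKO-labelled libraries, against 52.8 and 52.5 CPM in WT. Ndufb11 and Ndufs5, subunits of complex I, were the 2 that rose. Of 77 tested cytosolic ribosomal protein genes, 47 were lower and 7 higher, with a median log2 fold change of -0.51, and the lower count was 26 without WT replicate 2 and the higher count 4 with WT replicate 1 or WT replicate 2 left out. Rps12 had 4.37 and 4.29 CPM in DKO-labelled libraries, against 11.7 and 12.5 CPM in WT. Rpl29 stood apart from its list with 417 and 394 CPM in DKO-labelled libraries, 661 and 726 CPM in KO libraries and 5.99 and 6.34 CPM in WT. Ribosomal protein genes have many near-identical processed copies, and how reads with several matches were counted is not stated, so the split of their reads between copies is uncertain.

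**Figure D2:**
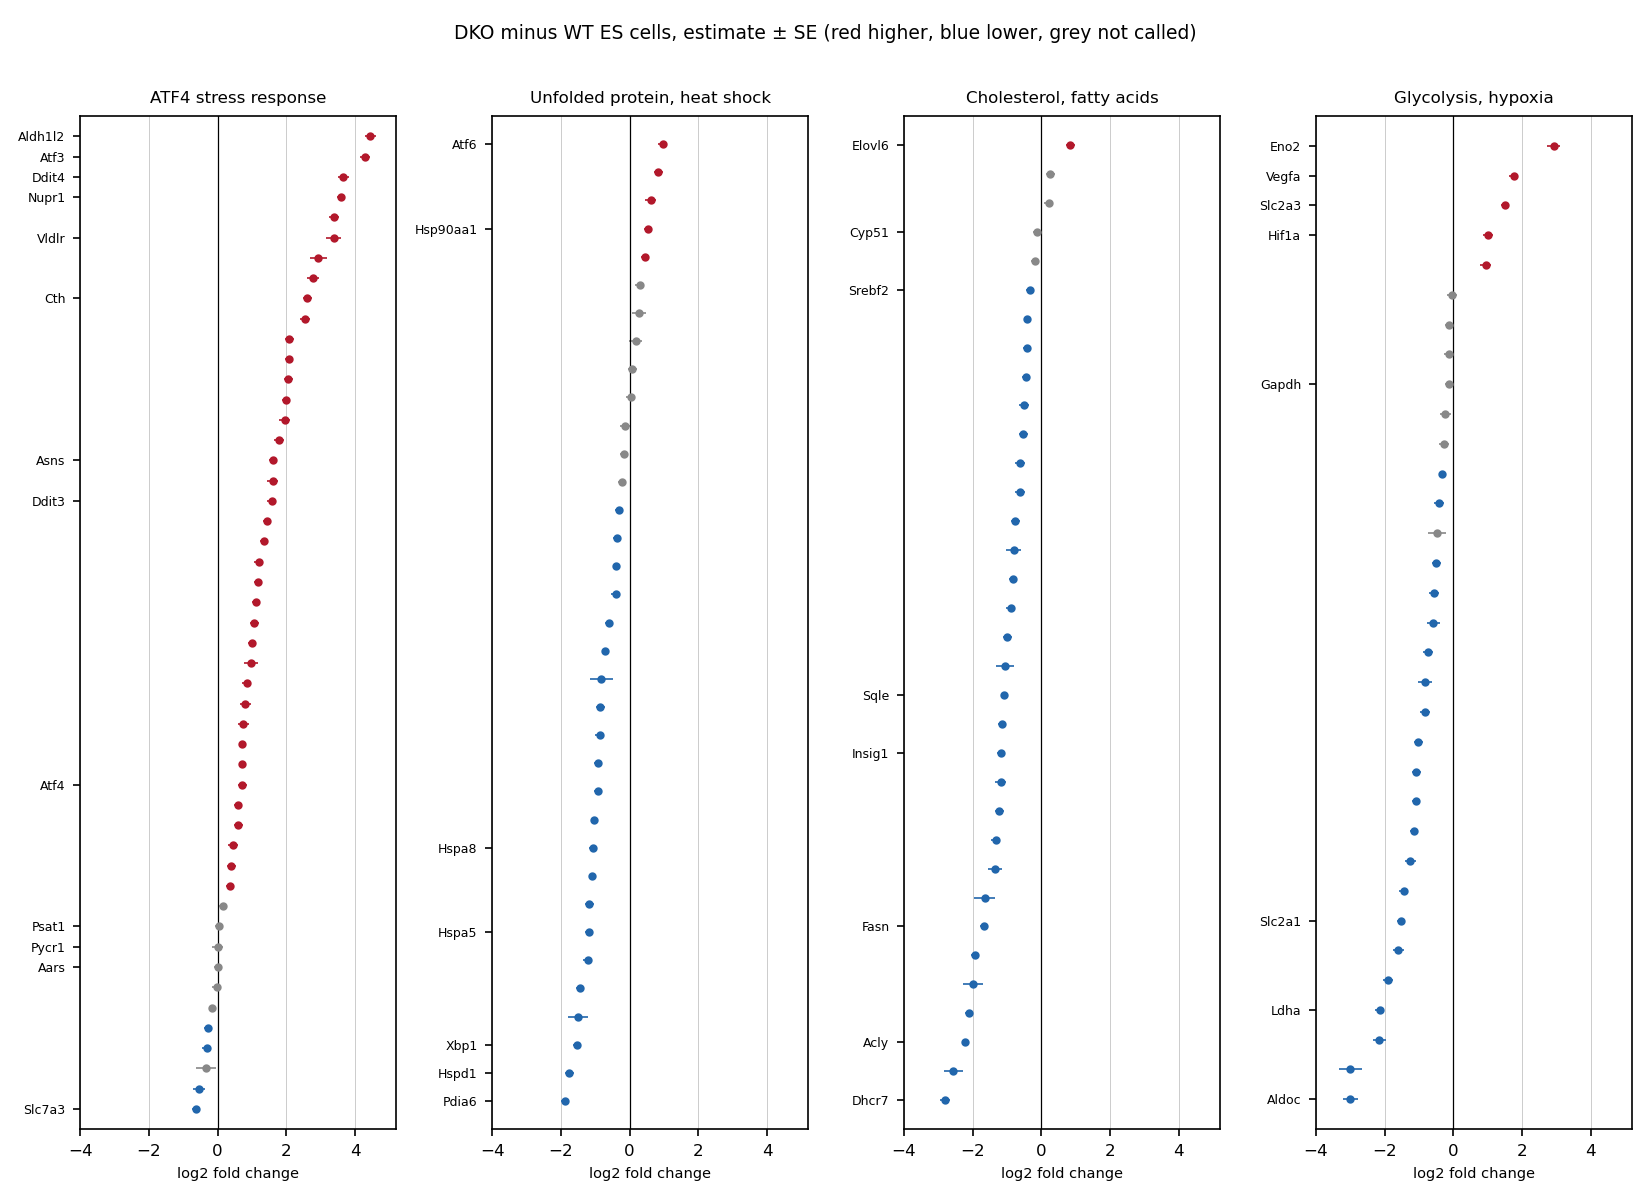
Log2 fold change, DKO-labelled minus WT ES cells, with its SE for every tested member of 4 lists, sorted within each list, with labels for the members described in the text. Points for the ATF4 stress response lie mostly right of 0 (38 of 49 higher), and those for protein folding, cholesterol and fatty acids, and glycolysis mostly left of it (22 of 35, 29 of 34 and 21 of 33 lower).

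Growth and cell cycle genes were called about as often in each direction as genes in general (32.2% higher and 31.6% lower over all genes). Among 36 tested cyclins, CDKs, CDK inhibitors and their regulators 11 were higher and 13 lower in DKO-labelled libraries, and 7 were higher with WT replicate 1 or WT replicate 2 left out. Mycn, the main Myc family gene of ES cells, had 21.9 and 17.8 CPM in DKO-labelled libraries, 464 and 481 CPM in KO libraries and 515 and 505 CPM in WT (DKO minus WT log2 fold change -4.69, SE 0.14, edgeR adjusted p = 6.5e-10). Myc had 25.1 and 21.1 CPM in DKO-labelled libraries, 61.9 and 74.2 CPM in KO libraries and 214 and 219 CPM in WT. Ccne1, which encodes cyclin E1, had 29.4 and 27.3 CPM in DKO-labelled libraries, against 180 and 182 CPM in WT. Several inhibitors of entry into S phase were higher. Cdkn1b, or p27, had 296 and 308 CPM in DKO-labelled libraries, against 64.2 and 60.0 CPM in WT (log2 fold change 2.28, SE 0.12, edgeR adjusted p = 1.9e-08). Rb1, the retinoblastoma gene, had 22.0 and 34.7 CPM in DKO-labelled libraries, against 5.91 and 5.34 CPM in WT, and Cdkn1a, or p21, 175 and 162 CPM in DKO-labelled libraries, against 65.9 and 58.9 CPM in WT. Cdkn2a fell (log2 fold change -1.85). The mitotic kinase gene Cdk1 was 0.802-fold the WT level.

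Of 38 tested p53 targets, 28 were higher and 4 lower in DKO-labelled libraries, with a median log2 fold change of 0.98, while Trp53 itself had 201 and 157 CPM in DKO-labelled libraries, against 311 and 340 CPM in WT. Trp53 is on chromosome 11. Mdm2, the ligase that degrades p53, had 310 and 342 CPM in DKO-labelled libraries, against 115 and 114 CPM in WT, and the apoptosis gene Bbc3 133 and 79.9 CPM in DKO-labelled libraries, against 51.8 and 45.4 CPM in WT. Among 24 tested immediate early and AP-1 genes 14 were higher and 5 lower. Jun had 140 and 131 CPM in DKO-labelled libraries, against 19.3 and 20 CPM in WT, and Klf6, a zinc finger factor, 249 and 318 CPM in DKO-labelled libraries, against 41.8 and 36.5 CPM in WT. The growth-factor-induced gene Ier3 fell (log2 fold change -1.91).

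Genes of DNA repair were lower more often than higher. Of 46 tested genes of break repair and checkpoints, 21 were lower and 2 higher in DKO-labelled libraries, or 6 higher without DKO replicate 1, with a median log2 fold change of -0.24. Xrcc6, which encodes Ku70 of end joining, had 17.1 and 17.8 CPM in DKO-labelled libraries, against 57.1 and 57.1 CPM in WT (log2 fold change -1.71, SE 0.13, edgeR adjusted p = 3.1e-07). Its partner Xrcc5 had 47.8 and 49.1 CPM in DKO-labelled libraries, against 110 and 106 CPM in WT. In homologous recombination Brca2 had 40.5 and 63.6 CPM in DKO-labelled libraries, against 144 and 130 CPM in WT. Rbbp8, which encodes the end-resection protein CtIP, was 1.6-fold higher. Of 47 tested replication genes 17 were lower, a share near the 31.6% over all genes, and 7 higher, or 2 higher with WT replicate 1 or WT replicate 2 left out. Pold2, a subunit of polymerase delta on chromosome 11, had 47.4 and 30 CPM in DKO-labelled libraries, against 144 and 152 CPM in WT. Gmnn, which encodes the licensing inhibitor geminin, was 0.437-fold the WT level. No subunit of the MCM helicase from Mcm2 to Mcm7 passed the test.

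Chromatin genes were examined list by list. Polycomb group genes, which keep developmental genes silent, were higher for 19 and lower for 6 of 31 tested in DKO-labelled libraries, or lower for 3 without WT replicate 2, with a median log2 fold change of 0.50. Bmi1, a core subunit of PRC1, had 26.7 and 33.7 CPM in DKO-labelled libraries, 13.4 and 16.8 CPM in KO libraries and 4.27 and 2.95 CPM in WT (DKO minus WT log2 fold change 3.07, SE 0.23, edgeR adjusted p = 3e-07). The PRC2 core moved little: Ezh2, its methyltransferase, was 1.36-fold, Eed 1.42-fold and Suz12 1.32-fold higher. Jarid2 and Phc1, the PRC2 and PRC1 subunits most typical of ES cells, fell, with log2 fold changes of -0.82 and -0.73.

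DNA methylation genes were higher for 9 and lower for 3 of 19 tested, with 1 lower without WT replicate 2 and 5 lower without DKO replicate 2. In either direction 63.2% of this list were called, near the 63.8% over all genes. Dnmt3b, the de novo methyltransferase, had 25.2 and 30.5 CPM in DKO-labelled libraries, 274 and 268 CPM in KO libraries and 150 and 150 CPM in WT (DKO minus WT log2 fold change -2.43, SE 0.13, edgeR adjusted p = 2.2e-08). Dnmt3a and Dnmt3l did not pass the test, and Dnmt1, which copies methylation at replication, was 0.828-fold the WT level. On the removal side, Tdg, the glycosylase that excises oxidised methylcytosine, had 48.0 and 62.3 CPM in DKO-labelled libraries, 60.3 and 60.3 CPM in KO libraries and 9.98 and 10.1 CPM in WT. Tet3, an oxidase of methylcytosine, had 110 and 103 CPM in DKO-labelled libraries, against 31.7 and 32.8 CPM in WT, while Tet1 and Tet2 did not pass the test.

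The H3K9 pathway, which builds heterochromatin upstream of H4K20 trimethylation, was lower for 13 and higher for 6 of 28 tested, with a median log2 fold change of -0.26, and 8 were lower without WT replicate 2. The share called in either direction was 67.9%, near the 63.8% over all genes. Setdb1, the methyltransferase of retroelement silencing, had 99.1 and 97.7 CPM in DKO-labelled libraries, against 165 and 168 CPM in WT, and Trim28, the corepressor that recruits it, 1288 and 1304 CPM in DKO-labelled libraries, against 2192 and 2204 CPM in WT. Atf7ip, the partner that stabilises SETDB1, fell as well (log2 fold change -1.06). Suv39h1, the pericentric H3K9 methyltransferase, rose to 100 and 82.7 CPM in DKO-labelled libraries, against 50 and 50.8 CPM in WT, and its paralog Suv39h2 did not pass the test. Of 27 tested genes of cohesin, CTCF and condensin, 13 were higher and 2 lower, with a median log2 fold change of 0.28, and 7 were higher without WT replicate 2. Leaving out any 1 of the DKO-labelled or WT libraries gave at most 1 lower. The condensin gene Smc4 had 236 and 315 CPM in DKO-labelled libraries, against 125 and 122 CPM in WT, and the cohesin loader gene Nipbl was 1.43-fold higher. Ctcf, the insulator protein gene, did not pass the test (log2 fold change 0.24, edgeR adjusted p = 0.10).

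**Figure D3:**
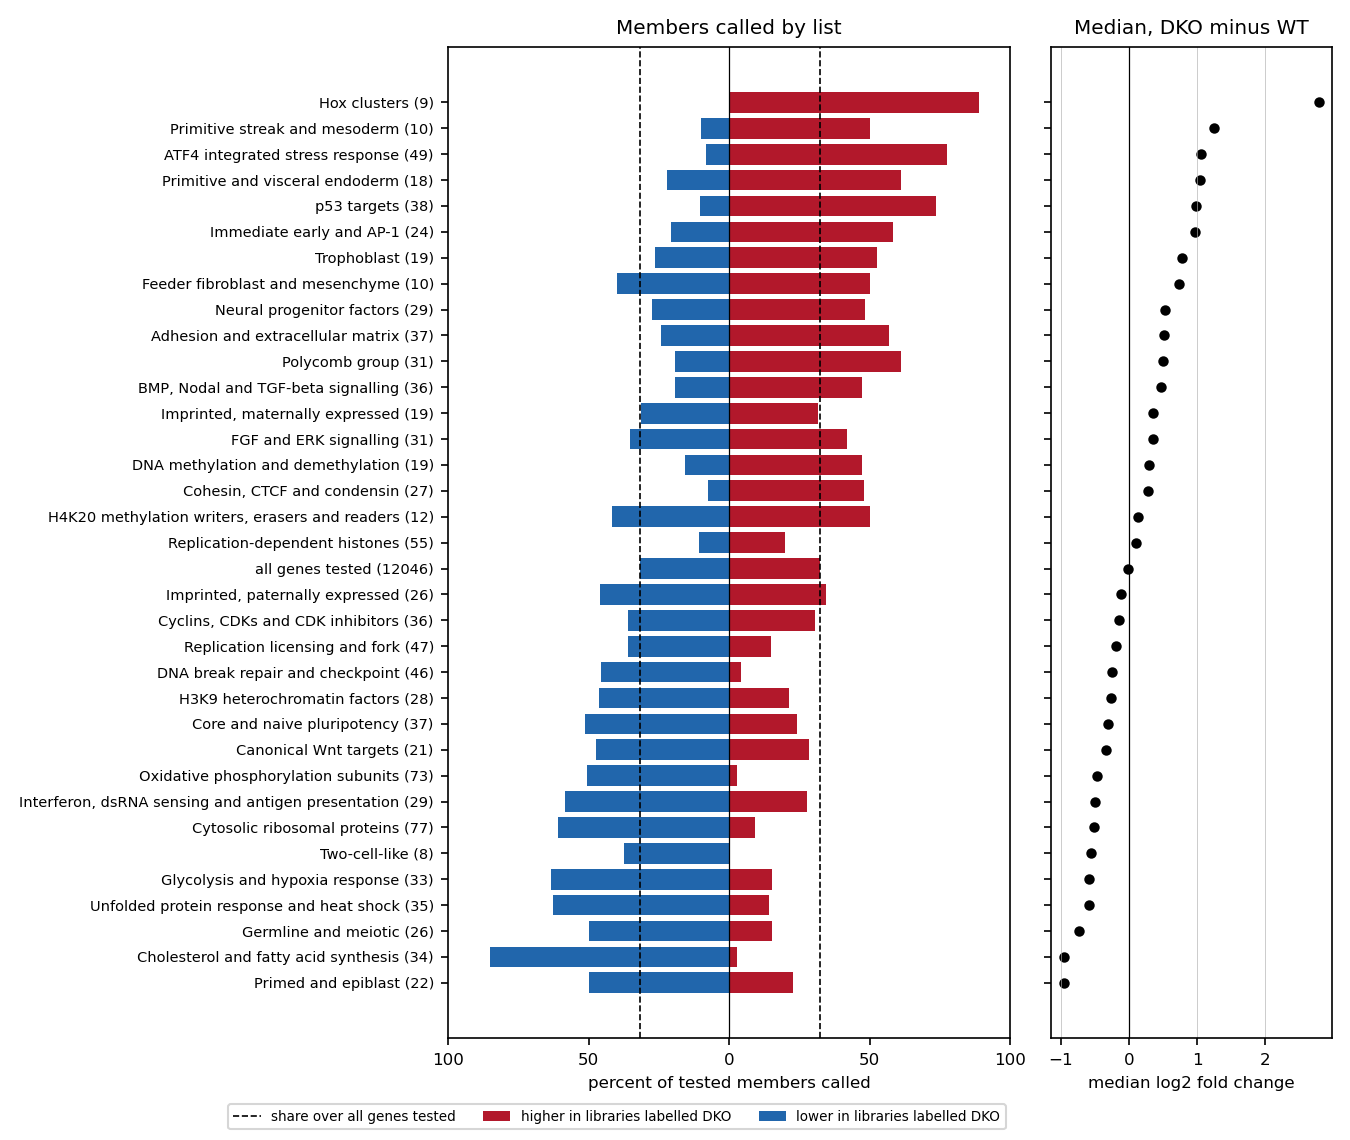
Left, the percentage of tested members of each list that were lower (to the left) or higher (to the right) in DKO-labelled libraries, with the number tested in parentheses and dashed lines at the shares over all genes, 31.6% and 32.2%. Right, the median log2 fold change of the tested members, from -0.95 for the primed and lipid synthesis lists to 2.79 for the 9 Hox genes that passed the filter. The Y-linked list, with 3 tested genes that were all lower, is not drawn.

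Pluripotency genes were lower more often than higher, and 7 of the 8 ES cell markers were lower. Of 37 tested genes of core and naive pluripotency, 19 were lower and 9 higher in DKO-labelled libraries, with a median log2 fold change of -0.31. Pou5f1, which encodes Oct4, had 1428 and 1319 CPM in DKO-labelled libraries, against 1750 and 1747 CPM in WT, and Sox2 did not pass the test. Nanog had 205 and 180 CPM in DKO-labelled libraries, 1128 and 1076 CPM in KO libraries and 388 and 412 CPM in WT. Zfp42, a zinc finger marker of naive cells also called Rex1, had 302 and 301 CPM in DKO-labelled libraries, 234 and 268 CPM in KO libraries and 2562 and 2419 CPM in WT. Some naive factors rose. Tbx3 had 2828 and 2370 CPM in DKO-labelled libraries, 406 and 446 CPM in KO libraries and 418 and 403 CPM in WT (DKO minus WT log2 fold change 2.66, SE 0.12, edgeR adjusted p = 9.7e-09). Klf5 was 2.61-fold, Klf4 2.17-fold and Esrrb 1.71-fold higher.

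Of 22 tested genes of the primed epiblast 11 were lower and 5 higher, or 3 higher without DKO replicate 1, with a median log2 fold change of -0.95. Zic2, a zinc finger factor, had 9.53 and 9.79 CPM in DKO-labelled libraries, against 112 and 113 CPM in WT. Otx2, a homeodomain factor of the same stage, went the other way with 29.5 and 29.9 CPM in DKO-labelled libraries, against 5.71 and 5.94 CPM in WT. The primitive endoderm markers Gata4, Gata6, Sox7, Sox17, Pdgfra and Dab2 summed to 32.1 and 23.3 RPKM in DKO-labelled libraries, against 3.38 and 3.68 RPKM in WT, with 4 higher of the 4 tested. Gata6, Sox7 and Sox17 were under 1 RPKM in both WT libraries and passed the filter only through other libraries, so that count was partly set by the filter. Pdgfra and Dab2 were not tested, and Dab2 was level, at 0.421 and 0.324 RPKM in DKO-labelled libraries and 0.414 and 0.432 RPKM in WT. Of the wider list of primitive and visceral endoderm genes, 18 were tested, 11 were higher and 4 lower, or 2 lower without WT replicate 1. Sox17 had 16.5 and 9.75 CPM in DKO-labelled libraries, against 0.985 and 2.23 CPM in WT. Afp, Cer1 and Apoa4, later endoderm genes, had no reads in either group. The part of endoderm markers in the other results was not tested.

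Neural factors changed in both directions. Of 29 tested, 14 were higher and 8 lower in DKO-labelled libraries, and 21 listed factors were below the filter. Olig2, a factor of motor neuron and oligodendrocyte progenitors, had 67.5 and 52.3 CPM in DKO-labelled libraries, 89.4 and 92.6 CPM in KO libraries and 0.164 and 0.359 CPM in WT. Sox6 had 80.9 and 100 CPM in DKO-labelled libraries, 4.66 and 2.54 CPM in KO libraries and 0.411 and 0.558 CPM in WT. Sox1, an early neural factor, had 481 and 431 CPM in DKO-labelled libraries, against 21.7 and 22.3 CPM in WT. Dll1, a Notch ligand, was 18.7-fold higher. Other neural genes fell, among them Pax6, at 0.757 and 1.42 CPM in DKO-labelled libraries, against 6.03 and 6.38 CPM in WT, and Gbx2, at 80.5 and 45.7 CPM in DKO-labelled libraries, against 309 and 333 CPM in WT. Of the Hox genes, which pattern the body axis, 9 of 39 in the files passed the filter and 8 were higher, or 3 with DKO replicate 1 or DKO replicate 2 left out. Hoxb9 had 31.8 and 27.7 CPM in DKO-labelled libraries, 6.65 and 4.87 CPM in KO libraries and 1.03 and 0.678 CPM in WT. In the mesoderm list 5 of 10 tested were higher and 1 lower (2 lower without DKO replicate 1), and in the trophoblast list 10 of 19 were higher and 5 lower. The shares over all genes were 32.2% higher and 31.6% lower. The 6 neural progenitor markers summed to 82.8 and 69.1 RPKM in DKO-labelled libraries, against 10.4 and 10.1 RPKM in WT, with Sox1 and Olig2 higher and Pax6 and Nes lower. Their part in the other results was not tested. The mesoderm markers summed to 1.76 and 1.35 RPKM in DKO-labelled libraries, against 2.18 and 1.73 RPKM in WT, and the trophoblast markers to 2.28 and 1.70 RPKM in DKO-labelled libraries, against 0.974 and 1.07 RPKM in WT.

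Signalling genes were read by their place in each pathway. The inhibitor in the medium blocks GSK3, which otherwise destroys beta-catenin, and canonical Wnt targets are the genes that beta-catenin induces with TCF and LEF factors. Of 21 tested targets 10 were lower and 6 higher in DKO-labelled libraries. Axin2, the general feedback target, was level with 30.7 and 34.0 CPM in DKO-labelled libraries and 31.9 and 35.6 CPM in WT, values that overlapped. Notum, which inactivates Wnt ligands, had 4.77 and 3.40 CPM in DKO-labelled libraries, 145 and 155 CPM in KO libraries and 81.2 and 86.8 CPM in WT. Notum is on chromosome 11. Lef1, a nuclear partner of beta-catenin, had 0.624 and 0.243 CPM in DKO-labelled libraries, 16.9 and 25.7 CPM in KO libraries and 11.1 and 10.9 CPM in WT. Cdx1, a caudal homeobox target, was 3.02-fold higher. The TCF/LEF letters CTTTGAA and CTTTGAT, on either strand, were in 5 of 30 promoters of the list, 16.7%, against 8.65% of all promoters. They were present for 1 of 5 lower members with a promoter and 0 of 4 higher members.

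The ligand genes Fgf15, Fgf17 and Fgf18 fell, and the ERK phosphatase genes Dusp4 and Dusp6 rose. Fgf17 had 6.77 and 5.26 CPM in DKO-labelled libraries, 48.1 and 53.4 CPM in KO libraries and 140 and 151 CPM in WT, Fgf18 on chromosome 11 was 0.09-fold and Fgf15 0.187-fold the WT level, while Fgf4, the main ES cell ligand, did not pass the test. Fgfr2, a receptor, fell (log2 fold change -2.02). Dusp4, a nuclear phosphatase of ERK, had 455 and 427 CPM in DKO-labelled libraries, 28.6 and 30 CPM in KO libraries and 46.2 and 48.4 CPM in WT, and Dusp6, its cytosolic relative, 361 and 348 CPM in DKO-labelled libraries, 38.5 and 43.6 CPM in KO libraries and 143 and 145 CPM in WT. Other feedback genes of the pathway did not follow them: Etv5 was 0.433-fold and Egr1 0.392-fold the WT level. Over the list 13 of 31 tested were higher and 11 lower, against 32.2% higher and 31.6% lower over all genes.

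In the BMP, Nodal and TGF-beta list 17 of 36 tested were higher and 7 lower, or 4 lower without WT replicate 1, with a median log2 fold change of 0.47. The share called in either direction was 66.7%, near the 63.8% over all genes. All 4 Id genes, targets of BMP, were higher: Id2 had 127 and 118 CPM in DKO-labelled libraries, against 12.3 and 11.2 CPM in WT, and Id1 was 1.46-fold, Id3 by a log2 fold change of 1.13 and Id4 by 1.20 higher. Bmp4 did not pass the test (edgeR adjusted p = 0.096), and Smad1, which carries the BMP signal, was 2.33-fold higher. The secreted antagonist genes Fst and Nog rose too. Fst had 24.3 and 26.6 CPM in DKO-labelled libraries, against 2.05 and 2.51 CPM in WT, and Nog had 7.57 and 5.58 CPM in DKO-labelled libraries, against 0.739 and 0.877 CPM in WT. On the Nodal side, Nodal was 1.95-fold higher, and its antagonist Lefty1 was 0.328-fold the WT level.

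Surface and matrix genes were higher for 21 and lower for 9 of 37 tested. The cadherins differed among themselves: Cdh1, or E-cadherin, had 383 and 400 CPM in DKO-labelled libraries, against 648 and 633 CPM in WT, Cdh3 was 0.215-fold the WT level, and Cdh2, or N-cadherin, had 12.7 and 13.7 CPM in DKO-labelled libraries, against 6.86 and 6.5 CPM in WT. The fibronectin receptor Itga5 had 281 and 278 CPM in DKO-labelled libraries, against 95.2 and 94.1 CPM in WT. The feeder fibroblast markers summed to 7.64 and 6.88 RPKM in DKO-labelled libraries, against 6.49 and 5.67 RPKM in WT. Among them Twist1 was higher and Thy1 lower, and the collagen genes Col1a1, Col1a2 and Col3a1 were below the filter.

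Genes of the interferon response, which DNA methylation and heterochromatin mutants are known to raise, were mostly lower. Of 29 tested, 17 were lower and 8 higher in DKO-labelled libraries, or 5 and 4 higher without WT replicate 1 and WT replicate 2, with a median log2 fold change of -0.49. Oas1a, a sensor of double-stranded RNA, had 0.223 and 0.243 CPM in DKO-labelled libraries, 31.1 and 32.1 CPM in KO libraries and 11.5 and 9.09 CPM in WT (DKO minus WT log2 fold change -5.43, SE 0.30, edgeR adjusted p = 3e-08). Oas1g, a near-identical neighbour, had no reads in DKO-labelled libraries, against 5.17 and 4.59 CPM in WT, and was at least 38-fold lower. Ifitm1, a membrane restriction factor, had 3.25 and 2.06 CPM in DKO-labelled libraries, against 39.9 and 35.6 CPM in WT. Among members that rose, the antigen presentation gene B2m had 71.8 and 60.3 CPM in DKO-labelled libraries, against 18.4 and 15 CPM in WT, and Tap1, which encodes a peptide transporter subunit, was 4.55-fold higher.

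The interferon-stimulated response element, searched on both strands as GAAA, any 2 bases and GAAA again, with overlaps allowed, was in 20 of 54 promoters of the list, 37%, against 1131 of 32851 promoters, 3.44%. It was present for 8 of 15 lower members with a promoter and 1 of 8 higher members. Oas1a at chr5:120907476-120907775 on the minus strand and Irgm1, an immunity-related GTPase, at chr11:48871371-48871670 on the minus strand are shown as the pair with the largest falls beside Oas1g among members that hold the letters, 5′ to 3′ on the gene's strand with the letters in capitals.
Oas1a: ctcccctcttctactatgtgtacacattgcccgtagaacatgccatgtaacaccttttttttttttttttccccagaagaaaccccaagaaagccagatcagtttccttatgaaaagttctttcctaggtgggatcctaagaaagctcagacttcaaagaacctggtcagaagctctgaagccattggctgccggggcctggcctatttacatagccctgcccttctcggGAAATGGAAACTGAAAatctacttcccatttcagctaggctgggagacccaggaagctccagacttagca
Irgm1: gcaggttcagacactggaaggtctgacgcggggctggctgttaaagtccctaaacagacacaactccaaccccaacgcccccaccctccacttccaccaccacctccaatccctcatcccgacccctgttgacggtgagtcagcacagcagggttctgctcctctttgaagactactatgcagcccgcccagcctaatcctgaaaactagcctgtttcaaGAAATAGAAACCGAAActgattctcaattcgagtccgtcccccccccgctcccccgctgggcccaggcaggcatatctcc
Both promoters hold 2 overlapping matches, which begin 20 and 14 bases before the start in Oas1a and 30 and 24 bases before it in Irgm1. Irgm1 had 0.401 and 1.05 CPM in DKO-labelled libraries, 3.66 and 4.01 CPM in KO libraries and 7.18 and 6.5 CPM in WT, and it lies on chromosome 11.

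Germline genes, which promoter methylation keeps silent in the soma, were lower for 13 and higher for 4 of 26 tested, and 21 listed genes were below the filter. The share called in either direction was 65.4%, near the 63.8% over all genes. Tex19.1, a genome-defence gene on chromosome 11, had 14.7 and 12.9 CPM in DKO-labelled libraries, 218 and 232 CPM in KO libraries and 62.6 and 65.9 CPM in WT. Cpeb1, a translational regulator of oocytes, rose to 35.4 and 35.5 CPM in DKO-labelled libraries, against 4.31 and 4.15 CPM in WT. Of 8 tested two-cell-like genes 3 were lower, against 31.6% over all genes. Among those, Gm5662 was near absence in both groups, with no reads in DKO-labelled libraries and 0.287 and 0.0797 CPM in WT. It passed the filter only through the KO libraries, at 9.85 and 4.78 CPM. AU018091 had 18.5 and 20.4 CPM in DKO-labelled libraries, against 96.4 and 98.6 CPM in WT, and no Zscan4 copy passed the test. Among imprinted genes the maternally expressed non-coding RNAs of the Dlk1-Meg3 domain fell together. Meg3 had 1.38 and 1.09 CPM in DKO-labelled libraries, 192 and 160 CPM in KO libraries and 39.8 and 45.0 CPM in WT, and Rian 0.0891 and 0.323 CPM in DKO-labelled libraries, 125 and 114 CPM in KO libraries and 28.6 and 30.9 CPM in WT. Elsewhere, the growth inhibitor gene Grb10 had 890 and 1148 CPM in DKO-labelled libraries, against 266 and 253 CPM in WT, although it is on chromosome 11, and the growth factor gene Igf2 was 4.6-fold higher while H19 did not pass the test. Over the imprinted lists 6 maternally expressed genes were higher and 6 lower of 19, and 9 paternally expressed genes were higher and 12 lower of 26. Over all genes 32.2% were higher and 31.6% lower, so the maternally expressed counts are near those shares.

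Beyond the lists, the 12 largest rises and 12 largest falls were taken among called genes of at least 5 RPKM whose groups did not overlap. Ripply3, a transcriptional corepressor, had 492 and 467 CPM in DKO-labelled libraries, 2.0 and 2.59 CPM in KO libraries and 7.80 and 6.58 CPM in WT (DKO minus WT log2 fold change 6.06, SE 0.16, edgeR adjusted p = 2.4e-10). Hrk, a BH3-only gene of apoptosis, had 391 and 440 CPM in DKO-labelled libraries, 14.1 and 11.4 CPM in KO libraries and 15.5 and 10 CPM in WT. Wls, which carries Wnt ligands to the surface, was 36.1-fold higher, and Tll1, a metalloprotease, 28.5-fold higher. Olig2 and Mid1, a ubiquitin ligase gene at the edge of the X chromosome, were lower than in the KO libraries by the test, with log2 differences of -0.60 and -0.74. Pla2g1b, a secreted phospholipase, had 0.312 and 0.485 CPM in DKO-labelled libraries, 30.6 and 22.8 CPM in KO libraries and 24.9 and 24.5 CPM in WT. Dynlt1b and Tmem181b-ps were as low in KO as in DKO-labelled libraries, as were Ddx3y and Eif2s3y. Dynlt1b has near-identical copies, so the split of its reads is uncertain.

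**Figure D4:**
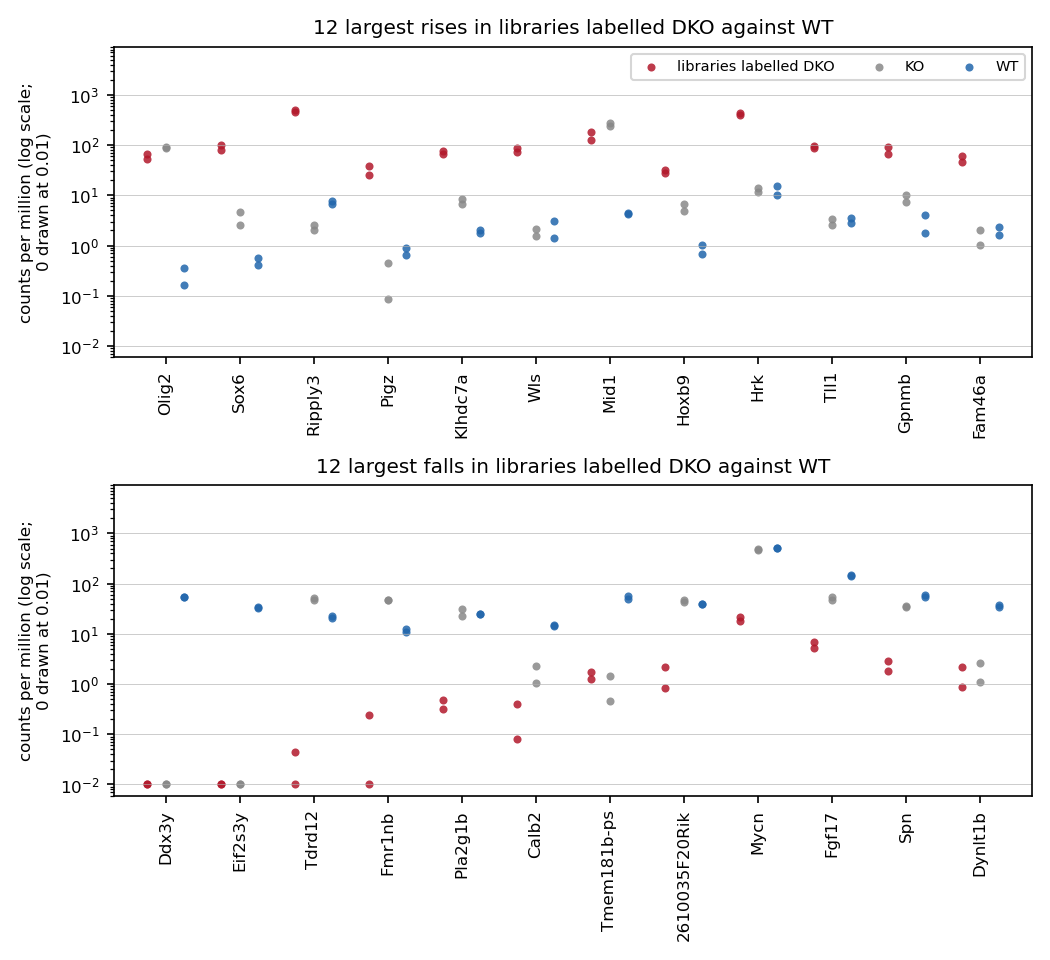
CPM on a log axis in each ES cell library for the 12 largest rises and 12 largest falls, with 2 points per genotype in the order DKO-labelled, KO and WT, and 0 drawn at 0.01. Ripply3, Hrk and Mycn stand apart in the DKO-labelled libraries, while Mid1, Olig2, Dynlt1b and the Y-linked genes lie near the KO libraries.

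The same 24 genes were looked up in the differentiated cells, where there is 1 library per genotype and day and no test. Of the 12 rises, 8 were also higher in DKO than in WT cells at day 8, 9 at day 12 and 7 on both days, against 46%, 59% and 37.2% of all 12046 genes. Of the 12 falls, 8 were also lower at day 8, 7 at day 12 and 7 on both days, against 53.9%, 40.8% and 32% of all genes. With 12 genes in each direction, nothing particular to them is read from these counts. Olig2 had 27.5 RPKM in DKO and 0.165 RPKM in WT cells at day 8, and 13.8 RPKM in DKO and 0.0369 RPKM in WT cells at day 12. Mycn, lower in the undifferentiated libraries labelled DKO, had 68.3 RPKM in DKO and 57.9 RPKM in WT cells at day 8, and 99.7 RPKM in DKO and 43.8 RPKM in WT cells at day 12. Fgf17 and Spn likewise were higher in DKO than in WT cells on both days.

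Genes on chromosome 11 were lower as a group. Of its 1040 tested genes, 531 were lower (51.1%) and 210 higher (20.2%) in DKO-labelled libraries, and their median was -0.40 on the log2 scale, or 0.76-fold. On the other autosomes and the X chromosome medians lay between -0.09 and 0.21. In windows of 50 neighbouring tested genes along chromosome 11, every running median was below 0, from -0.79 to -0.02. The members on that chromosome named above, such as Acly, Fasn, Xbp1, Pold2 and Trp53, fell by more than the chromosome's median, while Hoxb9 and Grb10 rose. The part of the chromosome-wide shift in those genes was not tested.

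**Figure D5:**
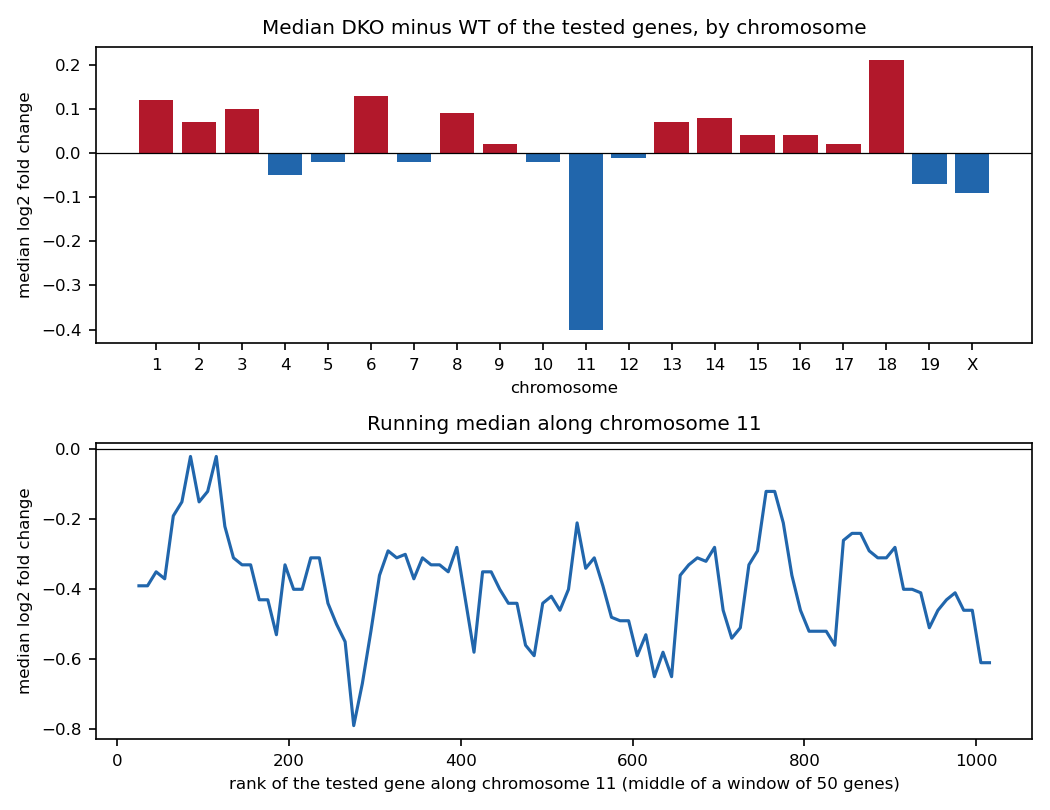
Upper panel, median log2 fold change (DKO-labelled minus WT) of the tested genes on each autosome and X, with chromosome 11 at -0.40 and the others between -0.09 and 0.21. Lower panel, running median over windows of 50 tested genes in their order along chromosome 11, which stays below 0 throughout.

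The 2 libraries labelled DKO differed more from each other than the WT libraries did. The median absolute log2 difference per gene between the 2 libraries of a group was 0.22 for DKO and 0.09 for WT, and 119 genes in DKO and 22 in WT differed at least 2-fold. Rmrp, the RNA of RNase MRP, which lacks a polyA tail, had 1.02 and 32.3 CPM in DKO-labelled libraries, against 2.67 and 0.837 CPM in WT, and its groups overlapped. Its log2 fold change of 3.26 was -0.74 without DKO replicate 2. Lars2, the mitochondrial leucyl-tRNA synthetase gene, had 417 and 2771 CPM in DKO-labelled libraries, against 382 and 345 CPM in WT, and its log2 fold change of 2.13 was 0.22 without DKO replicate 2 (edgeR adjusted p = 0.51). Replication-dependent histone genes, whose main transcripts also lack a polyA tail, were split by this spread. With both libraries 11 of 55 tested were higher and 6 lower, with a median log2 fold change of 0.10. Without DKO replicate 1, 20 were higher and the median was 0.54, and without DKO replicate 2, 23 were lower and 6 higher and the median was -0.80. Hist1h2ad was low in both, with 8.42 and 13.9 CPM in DKO-labelled libraries, 6.73 and 10 CPM in KO libraries and 140 and 140 CPM in WT, but it shares its sequence with other H2A copies and the split of reads is uncertain.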

How the data were processed

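RNA-seq of polyA RNA from 6 ES cell libraries was used, of which 4 form the comparison. Per the labels' protocols, libraries were made with the NEBNext Ultra II kit. Per the submitters' processing notes, Bowtie2 and the mm9 build were used. The counting program, its strand setting and its treatment of reads with several matches are not given in the sources used here. Deposited tables give read counts and RPKM for each of 29257 transcript models. For each of 22878 symbols the longest model was kept. Chromosomes and gene order came from RefSeq (GRCm38.p6), with no coordinates of those models printed. Matching went by transcript identifier, then symbol, then synonym, and gave a chromosome to 99.7% of symbols. Reads in genes ranged from 23309954 to 25820444 in the libraries of the comparison, and floors of 3 counts cover counting error only.

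Genes that reached 1 RPKM in 2 or more of the 6 ES cell libraries were tested on the deposited counts with edgeR 4.0.16 in R 4.3.3 (TMM scaling, genotype only, Benjamini-Hochberg over all 12046 genes, threshold 0.05). The SE was taken from the log2 fold change and the F statistic. CPM values are TMM-scaled, and sums of markers use the authors' RPKM. Tested on simulated counts for this comparison of 12046 genes, the method called 87% of 2-fold changes, 100% of 4-fold changes and 0.0675% of unchanged genes. That simulation changed 100 genes 2-fold and 100 genes 4-fold, none of them of low counts, and left 11846 unchanged. It gave all groups the same spread. In the data 7688 genes were called and the DKO-labelled libraries had the wider spread, so these rates may not carry over. Alternatives were other scalings and filters, DESeq2 1.42.0, limma 3.58.1 on log2 RPKM with pseudocounts of 1 and 0.1, only the DKO and WT libraries, another transcript model, the replicate number as a block, and leaving out each library.

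Genes were named by a rule: the H4K20 list, the 12 largest rises and falls among called genes of at least 5 RPKM with no overlap, at least 300 bases and no ribosomal protein gene, up to 6 called members per list by adjusted p, and the 4 genes that differ most between the DKO libraries. Other list members were named after their values were seen. The members and lists were chosen with earlier results of these data known. Some genes that the rule names are not reported here.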

Additional observations from a re-analysis of the deposited data

How the results depend on the processing

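Of the 16 alternatives none moved the 7688 called genes by over 1.5 times. Genes changed at least 2-fold, 3242 as reported, were 1885 with a filter of at least 5 RPKM, where fewer genes were tested, and 2034 by limma on log2(RPKM + 1), where the pseudocount shrinks low genes. Leaving out 1 library in turn gave 5929 to 7744 called genes, 2988 to 3831 higher, 2901 to 3913 lower and 2851 to 3198 at least 2-fold, Suv420h2 at -2.94 to -2.29, Suv420h1 at 0.41 to 0.61 (not called without WT replicate 1) and Rmrp at -0.74 to 4.31. Rmrp reversed without DKO replicate 2 and was not called by DESeq2, by limma or with the 5 RPKM filter, and the cause was not tested. Lars2 was not called by DESeq2 or limma, Gm5662 not by limma, and Trp53bp1 not by limma or with the 5 RPKM filter. Where a library was left out, the lone library of its group was assumed to vary like the others. Scaling by library totals alone gave 3460 higher and 4227 lower, with a median over all genes of -0.09. Of 219 named genes 218 were tested and 215 called. Of these Rmrp, Lars2, Trp53bp1, Gm5662 and Suv420h1 lost their call when 1 library was left out, and Setd8, Hist1h4k and Rprl3 gained one under some alternative. List counts of silent genes follow the filter in both directions. With no filter 25 Hox genes were higher and 0 lower, and 21 neural factors were higher and 10 lower. In the mesoderm list 11 were then higher and 6 lower, against 5 and 1 with the filter. Same-numbered libraries did not pair (correlations of deviations -0.0556 for DKO with WT, -0.104 for DKO with KO and -0.00622 for KO with WT), and the replicate block gave 7433 called genes, lost the calls of Trp53bp1 and Rmrp and added that of Rprl3. Depth of 23309954 reads or more in genes limits calls at low counts, where folds against 0 reads are lower bounds.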
